A study of Homo sapiens with 9 samples.

Results

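The S100 genes described here are S100P, S100A2, S100A3, S100A4, S100A6, S100A8, S100A9, S100A11, S100A14 and S100A16. They are 10 genes picked by symbol from a table of 33861 genes, with earlier results of the same libraries known, so their values are a description and carry no test. Of the 10 genes, 9 were matched by symbol in this table. The expression of S100A8 was not analysed here, and this gene appears only among the promoter sequences. RNA sequencing after depletion of ribosomal RNA gave 9 libraries of HCT116, an established human colorectal carcinoma cell line. The 3 control libraries (NC) came from cells without either factor, whose time in culture is not given in the sources used here. The 3 activin libraries came from cells given 100 ng/mL activin A for 5 days. The 3 activin + HGF libraries came from cells given 100 ng/mL activin A for 5 days and then 20 ng/mL hepatocyte growth factor (HGF) for 5 days. No group received HGF alone and none received activin alone for the full time of the sequential treatment. Whether activin stayed in the medium during the HGF days is not given in the sources used here. HGF, the longer culture and any removal of activin therefore cannot be told apart.

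S100 proteins are small calcium-binding proteins of vertebrates that carry paired EF-hand motifs and mostly act as dimers. Calcium opens a hydrophobic face on the dimer, which then grips target proteins such as annexins and myosin. Several S100 proteins also leave the cell and bind receptors such as RAGE, and many of their genes lie side by side in the epidermal differentiation complex of chromosome 1. In colorectal carcinoma the family is best known for S100A4 and S100P, which have been studied in cell motility and metastasis.

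The 9 matched genes have their coordinates in the deposited table, whose build is not named. Of its gene IDs with an entry in GENCODE 29 (GRCh38), 87.0% share a start or an end with that annotation. S100P lies on the plus strand of chromosome 4, from 6693878 to 6697170. The other 8 matched genes lie on chromosome 1, S100A9 on the plus strand and the others on the minus strand. S100A6 (153534599 to 153536215), S100A4 (153543613 to 153550136), S100A3 (153547329 to 153549258), S100A2 (153561108 to 153567890), S100A16 (153606886 to 153613137) and S100A14 (153614255 to 153616927) stand in 1 row. S100A3 lies within the span of S100A4 on the same strand, and their GENCODE exons share 0 bases. S100A11 lies apart from this row, from 152032506 to 152047907.

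Promoter sequences were taken from RefSeq (GRCh38.p14) as the 250 bases before each annotated start. All 10 symbols matched, with 14 windows. S100P and S100A4 are shown first because S100P was at 0 in control cells and S100A4 was the highly expressed member that was lower with activin, and both hold a TATA box (TATAAA, in capitals) close to the RefSeq start. The 30 bases of S100P are chr4:6693838-6693867 on the plus strand, and those of S100A4 are chr1:153545820-153545849 on the minus strand.
S100P: atgaggctgcctTATAAAgcaccaagaggc
S100A4: gcctggctggggTATAAAtaggtcagacct
Both stretches lie within GENCODE exons, and the gene and strand of these exons were not looked up. By the deposited coordinates, S100P starts at 6693878, after its stretch, so these exons do not show an earlier start of S100P. The stretch of S100A4 lies inside the deposited span of its gene (153543613 to 153550136). The TATA box began 28 bases before the start of S100P and 31 bases before the start of S100A4. S100A16 and S100A14 are shown because they are neighbours that were both higher with activin. The stretches are chr1:153613146-153613387 for S100A16 and chr1:153616356-153616575 for S100A14, both on the minus strand, without the bases that GENCODE counts as exon. The S100A14 stretch lies inside the span of its gene in the deposited table (153614255 to 153616927). Capitals mark a CAGA box, the element bound by the SMAD proteins that activin receptors activate (CAGACA, here on the other strand as TGTCTG). A second S100A16 window (153609356 to 153609605), not printed, holds a CAGA box as well.
S100A16: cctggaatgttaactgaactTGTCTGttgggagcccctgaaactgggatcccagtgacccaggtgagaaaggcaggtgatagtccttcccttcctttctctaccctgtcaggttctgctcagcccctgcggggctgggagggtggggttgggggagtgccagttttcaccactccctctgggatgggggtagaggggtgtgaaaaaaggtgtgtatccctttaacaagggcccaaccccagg
S100A14: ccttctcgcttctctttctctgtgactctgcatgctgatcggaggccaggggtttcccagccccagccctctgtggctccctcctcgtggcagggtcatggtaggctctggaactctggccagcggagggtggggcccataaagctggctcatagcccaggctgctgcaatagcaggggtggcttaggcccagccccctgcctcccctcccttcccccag

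Each motif was searched on both strands of all 35116 RefSeq promoter windows of this length. The CAGA box stood in 13.6% of all windows and in a window of S100A2, S100A8, S100A11 and S100A16. The TATA box stood in 10.7% of all windows and in a window of S100P, S100A4, S100A8 and S100A9. The AP-1 element (TGANTCA) stood in 6.57% of all windows and in those of S100A2 and S100A3. The GC box (GGGCGG) stood in 42.6% of all windows and in those of S100A3, S100A6, S100A9, S100A11 and S100A16. The SMAD palindrome (GTCTAGAC), present in 0.182% of all windows, was in none of the 14 windows. Nor was the NF-kB element in the spelling searched (GGG, any 2 bases, then TTTCC), present in 1.73% of all windows. Other spellings of this element were not searched, and the printed S100A14 stretch holds ggggtttccc, which the pattern does not cover. No match of one motif overlapped a match of another in the members' windows. A match is a description of the letters, and neither binding nor promoter use was measured.

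Total counts were 57453977 to 77016167 per library (median 65367501). Counts were set on a common scale as CPM, the count relative to the TMM-scaled size of its library, and 20988 genes passed the filter on low counts. A gene was called when its adjusted p was under 0.05 (quasi-likelihood test of edgeR, adjusted over all tested genes after Benjamini and Hochberg) and its mean differed at least 2-fold, a log2 fold change of 1 in size. Of the low counts (1 to 40), 35.0% could be divided by 4, where an even spread would give 25%, so 12 counts (3 fragments of 4 counts) were taken as the limit that a count of 0 allows. This limit equals 0.149 to 0.220 CPM, depending on the library, and covers counting error only. Of 6 epithelial markers, 5 stood at 1 FPKM or more in each group, with VIL1 near 0, and of the myeloid markers, which go with S100A8 and S100A9, 0 of 6 matched genes reached 1 FPKM. The summed stratified epithelial markers stood at 7.10 to 7.60 FPKM in control, 19.6 to 25.95 in activin-treated and 47.6 to 69.4 in activin + HGF-treated libraries, with only KRT10 at 1 FPKM or more; their part in the S100 values was not tested. The fibroblast markers, mainly COL1A1, summed to 2.27 to 2.51, 4.58 to 6.04 and 2.83 to 3.62 FPKM in the 3 groups, and the endothelial markers to at most 0.14 FPKM. In bulk RNA, fewer cells that express a gene and less RNA of it per cell cannot be told apart.

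In HCT116 cells, 5 S100 genes (S100P, S100A6, S100A11, S100A14 and S100A16) were higher after activin, and S100A4 was lower. After the HGF step, S100P, S100A6, S100A14 and S100A4 were higher in every library than in any activin library, in CPM and in FPKM. S100A4 thus stood between its activin and control levels, whereas S100A6 and S100A14 moved further from control. S100A2 overlapped between all groups, and S100A9 was not detectable at this depth.

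**Figure D1:**
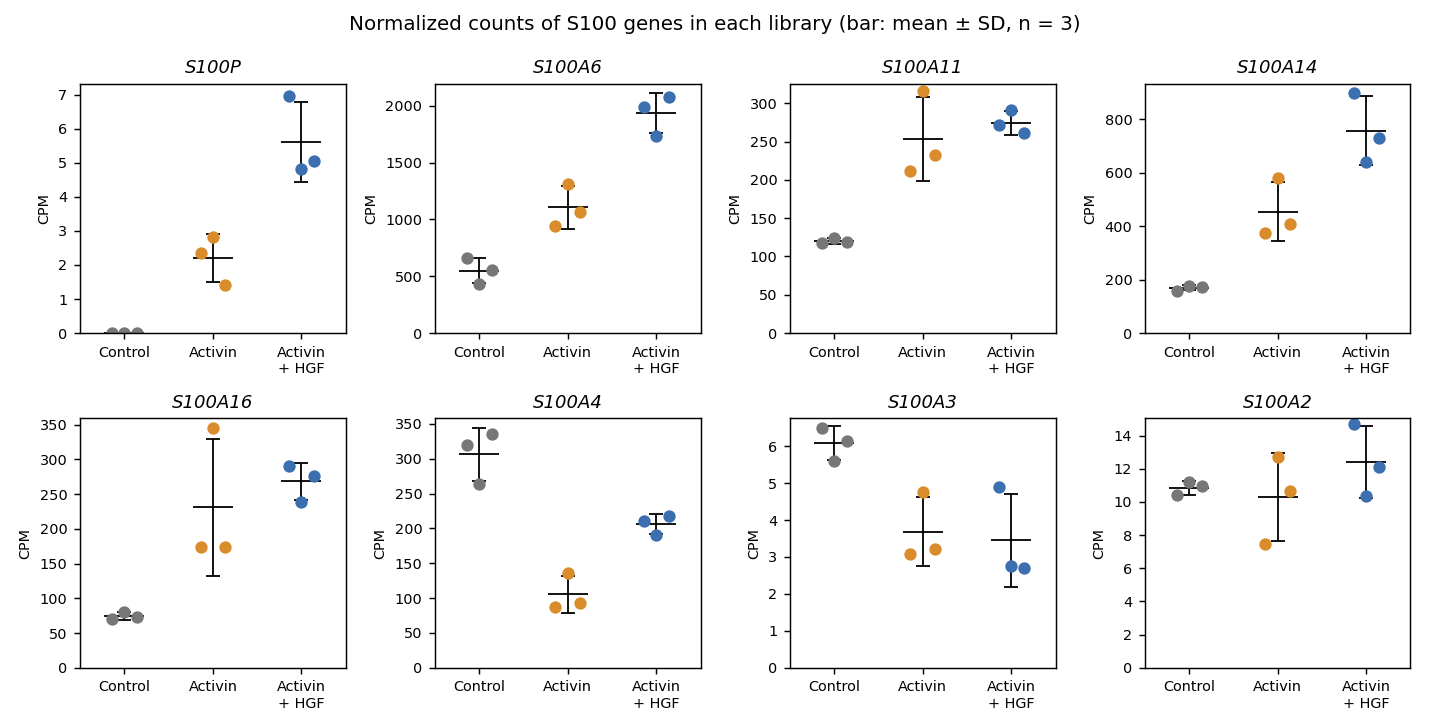
Normalized counts (CPM, linear axis from 0) of 8 S100 genes, with 1 point per library and bars for the mean ± SD of 3 libraries. S100P was at 0 in the control libraries, S100A4 was highest in control at 263 to 336 CPM, and S100A2 overlapped between the groups.

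S100P, a secreted and cytoplasmic protein that binds ezrin and the receptor RAGE, had 0 counts in the 3 control libraries. It had 2.36, 2.82 and 1.42 CPM in the activin libraries and 6.98, 4.83 and 5.05 CPM in the activin + HGF libraries. The groups did not overlap. The raw counts behind these values were 174, 176 and 107 with activin and 380, 332 and 324 with activin + HGF. Against 12 counts in the smallest control library, S100P was at least 11.2-fold higher with activin and at least 28.7-fold higher with activin + HGF. Activin + HGF stood 2.55-fold above activin (log2 fold change 1.35 ± 0.361, SE). On the authors' FPKM scale, S100P reached 2.98 to 5.09 with activin and 7.97 to 9.71 with activin + HGF, so even its highest level was far below that of S100A6.

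S100A6 (calcyclin), which binds annexins and the calcyclin-binding protein CACYBP, was the most abundant member. It had 657, 433 and 555 CPM in control, 940, 1309 and 1066 CPM in activin and 1992, 1737 and 2075 CPM in activin + HGF libraries. Each group lay above the one before it without overlap. The log2 fold change was 1.01 ± 0.194 (SE) for activin against control and 0.81 ± 0.193 for activin + HGF against activin, and in all S100A6 stood 3.53-fold above control after both factors. Without activin replicate 2 the activin estimate was 0.87, and without control replicate 2 it was 0.91, so the 2-fold mark rests on each of these libraries.

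S100A14, an epithelial member of the family, showed the same order. It had 159, 176 and 173 CPM in control, 375, 582 and 407 CPM in activin and 897, 642 and 732 CPM in activin + HGF libraries. The groups did not overlap, and the distance from control widened from 2.69-fold (log2 fold change 1.43 ± 0.203, SE) with activin to 4.47-fold (2.16 ± 0.208) with both factors. The step from activin to activin + HGF was 0.73 ± 0.201 on the log2 scale.

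S100A16, a widely expressed member next to S100A14, had 70.4, 80.5 and 73.4 CPM in control and 174, 345 and 174 CPM in activin libraries. It had 290, 239 and 276 CPM in activin + HGF libraries. Both treated groups lay above control, and they overlapped each other because activin replicate 2 held the highest value of all 9 libraries. The log2 fold change was 1.63 ± 0.262 (SE) for activin against control, 0.22 ± 0.255 for activin + HGF against activin and 1.84 ± 0.263 for activin + HGF against control. Without activin replicate 2 the first was 1.22 and the second was 0.62.

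S100A11 (calgizzarin), a partner of annexin A1, had 117, 124 and 119 CPM in control and 212, 316 and 232 CPM in activin libraries. It had 272, 291 and 261 CPM in activin + HGF libraries. Both treated groups lay above control and overlapped each other. Activin stood 2.10-fold above control (log2 fold change 1.07 ± 0.175, SE), and activin + HGF differed from activin by 0.12 ± 0.173. Without activin replicate 2 the activin estimate was 0.88.

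S100A4 (metastasin), which binds nonmuscle myosin heavy chain MYH9 and is known for its part in cell motility, went the other way with activin. It had 320, 263 and 336 CPM in control, 87.5, 136 and 93.4 CPM in activin and 211, 191 and 218 CPM in activin + HGF libraries. The 3 groups did not overlap, and activin was the lowest. S100A4 was 2.90-fold lower with activin than in control (log2 fold change -1.53 ± 0.200, SE) and 1.95-fold higher with activin + HGF than with activin (0.97 ± 0.198). After both factors it was still 1.48-fold below control (-0.57 ± 0.196).

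S100A3, a cysteine-rich and zinc-binding member best known from the hair cuticle, was low. It had 6.50, 5.59 and 6.14 CPM in control, 3.08, 4.75 and 3.22 CPM in activin and 4.90, 2.75 and 2.71 CPM in activin + HGF libraries. Both treated groups lay below control and overlapped each other. The log2 fold change was -0.72 ± 0.307 (SE) for activin and -0.82 ± 0.308 for activin + HGF against control. Without activin + HGF replicate 1 the second was -1.15.

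S100A2, a mostly nuclear protein of epithelial cells, had 10.4, 11.2 and 10.96 CPM in control and 7.45, 12.7 and 10.7 CPM in activin libraries. It had 14.7, 10.4 and 12.1 CPM in activin + HGF libraries. The groups overlapped in each comparison, and the log2 fold changes were -0.08 ± 0.236, 0.27 ± 0.236 and 0.19 ± 0.236 (SE) for activin against control, activin + HGF against activin and activin + HGF against control. S100A9, which pairs with S100A8 as calprotectin in neutrophils and monocytes, had 0 counts in 8 libraries and 4 counts in activin + HGF replicate 3, under the limit of 12 counts.

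Of the 9 matched members, 8 passed the filter. Of these 8, 6 met the call rule for activin against control, 5 higher and 1 lower (11.4% of all tested genes met it, 6.78% higher and 4.62% lower). In the step from activin to activin + HGF, 1 of the 8, S100P, met it, and it was higher (8.09% of all tested genes met it, 3.87% higher and 4.21% lower). For activin + HGF against control, 5 of the 8 met it, 5 higher and 0 lower (21.5% of all tested genes met it, 11.3% higher and 10.2% lower). In the same order of comparisons, the groups did not overlap for 7, 4 and 7 of the 8 genes, against 42.2%, 32.7% and 53.8% of all tested genes. With no fold required, 4 of the 8 had an adjusted p under 0.05 for activin + HGF against activin, as did 12.9% of all tested genes. The members were chosen with these values known, so nothing is read from these counts. The median log2 fold change of the 8 genes was 1.04, 0.50 and 1.504, beside 0.02, -0.04 and -0.03 over all tested genes. On log2(FPKM + 0.1), S100A11 (0.89) no longer met the rule for activin + HGF against control and S100A3 (-1.14) met it, which gave 4 higher and 1 lower, and on log2(FPKM + 1) the split was 4 higher and 0 lower. Without activin + HGF replicate 1 it was 5 higher and 1 lower. Without activin replicate 2, 4 of the 8 met the rule for activin against control and 2, S100P and S100A4, for activin + HGF against activin. In each of 7 other leave-one-out fits, those without control replicate 1, 2 or 3, activin replicate 1 or 3 or activin + HGF replicate 1 or 3, S100P did not meet it for activin + HGF against activin and the count was 0, with estimates of 1.04 to 1.42.

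Several features of the libraries moved with these values. Activin replicate 2 was the highest activin library for 8 of 8 tested members, and it was so for 41.9% of all tested genes. The members are short genes. Length was judged by the count per FPKM of each gene, and tested genes with very low FPKM were left out. Of the 8 members, 7 belong to the shortest quintile of the genes ranked in this way (3308 genes). In that quintile the median log2 fold change of its genes was 0.29 for activin + HGF against activin and 0.19 for activin + HGF against control. In the longest quintile it was -0.15 and -0.19. For activin against control it was 0.01 in the shortest quintile. The part of length in the values of the HGF step was not tested.

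The authors' FPKM, which were scaled by the authors, placed the HGF step lower. FPKM also divide by gene length, which is the same for a gene in every library. After library scaling, the count per FPKM of a gene differed between libraries by 1.002-fold (highest over lowest, median of 9264 genes). On log2(FPKM + 0.1) the median change of all genes was -0.31 for activin + HGF against activin and -0.29 for activin + HGF against control. On this scale the HGF step gave 1.00 for S100P, 0.61 for S100A4, 0.44 for S100A6 and 0.37 for S100A14. S100A11 gave -0.24, S100A2 -0.09 and S100A16 -0.09, so the sign of these small estimates turned, as did that of S100A2 for activin + HGF against control, at -0.12. All genes shared the shift, and the calls over all genes for activin + HGF against activin went from 813 higher and 884 lower to 339 higher and 1521 lower. With upper-quartile scaling of the counts they were 639 higher and 1047 lower. For activin + HGF against control they went from 2378 higher and 2141 lower to 1291 higher and 2863 lower on FPKM.

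Between genes, levels can be compared per length, in FPKM. In control cells S100A6 stood at 391 to 622 FPKM, S100A4 at 244 to 318, S100A11 at 165 to 168, S100A14 at 114 to 122 and S100A16 at 38.0 to 41.5. These neighbours did not overlap. S100A3 (5.83 to 7.08) and S100A2 (6.16 to 6.33) overlapped, and S100P and S100A9 were listed at 0. With activin the order was S100A6 (975 to 1153), S100A11 (329 to 416) and S100A14 (296 to 390), which overlapped, and then S100A16 (101 to 174) and S100A4 (93.1 to 123), which overlapped as well. Below these, S100A2 (4.83 to 7.02), S100P (2.98 to 5.09) and S100A3 (3.67 to 4.82) overlapped, S100P with both others. With activin + HGF the order was S100A6 (1345 to 1622), S100A14 (392 to 460), S100A11 (274 to 349), S100A4 (146 to 175), S100A16 (109 to 123), S100P (7.97 to 9.71), S100A2 (5.20 to 6.19) and S100A3 (2.44 to 3.81), with no overlap between neighbours. S100A4 thus went from the second place in control to a place shared with S100A16 after activin.

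Summed over the 9 matched genes, the S100 transcripts reached 1265, 978 and 1169 FPKM in control, 1809, 2273 and 1971 FPKM in activin and 2357, 2418 and 2677 FPKM in activin + HGF libraries. Each group lay above the one before it. As a share of all FPKM the sum was 0.245% to 0.327%, 0.479% to 0.532% and 0.619% to 0.659%. S100A6 made up 39.99% to 49.2% of the sum in control and 57.1% to 60.6% with activin + HGF. S100A4 made up 24.6% to 27.2% in control and 4.96% to 5.42% with activin, and after HGF its share was 6.19% to 6.55%. Neither the S100A6 share nor the S100A4 share overlapped between control and the treated libraries.

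**Figure D2:**
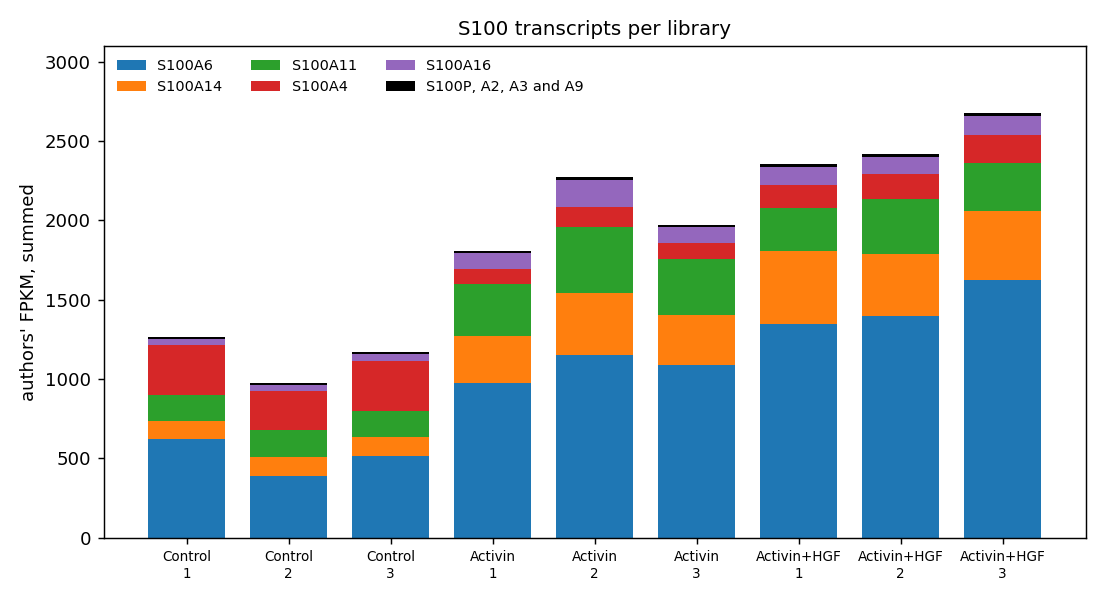
Summed FPKM of the authors (linear axis from 0) for the 9 matched S100 genes in each of the 9 libraries, stacked by gene. The sum was 978 to 1265 in control and 2357 to 2677 with activin + HGF, with S100A6 as the largest block in every library.

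On chromosome 1, genes with estimates above and below 0 stood within the same row. From S100A6 to S100A1, 9 S100 genes stand within 97.4 kb (153534599 to 153632039). Along this row S100A6 was higher with activin, the estimates of S100A5, S100A4 and S100A3 were below 0, S100A2 was near 0, S100A16 and S100A14 were higher, S100A13 had an estimate of 0.29 that did not pass the test and S100A1 had an estimate below 0. Between S100A10 and S100A1 (151982915 to 153632039) the table also holds 26 genes outside the S100 and fused-type lists, and 9 of these were tested. Of these 9, 7 rose and 0 fell with activin against control, 1 rose and 2 fell with activin + HGF against activin, and 6 rose and 0 fell with activin + HGF against control (edgeR, call rule as above). Over all tested genes 6.78% were called higher and 4.62% lower with activin, 3.87% and 4.21% in the HGF step, and 11.3% and 10.2% with both factors against control. The interval was defined by the S100 genes and its counts are a description. The median log2 fold change of the 9 was 6.11 for activin against control. A gene near 0 in control can pass the filter only through treated libraries, and against control it can then only be higher. How many of the 9 passed in this way was not counted, so nothing is read from this split.

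**Figure D3:**
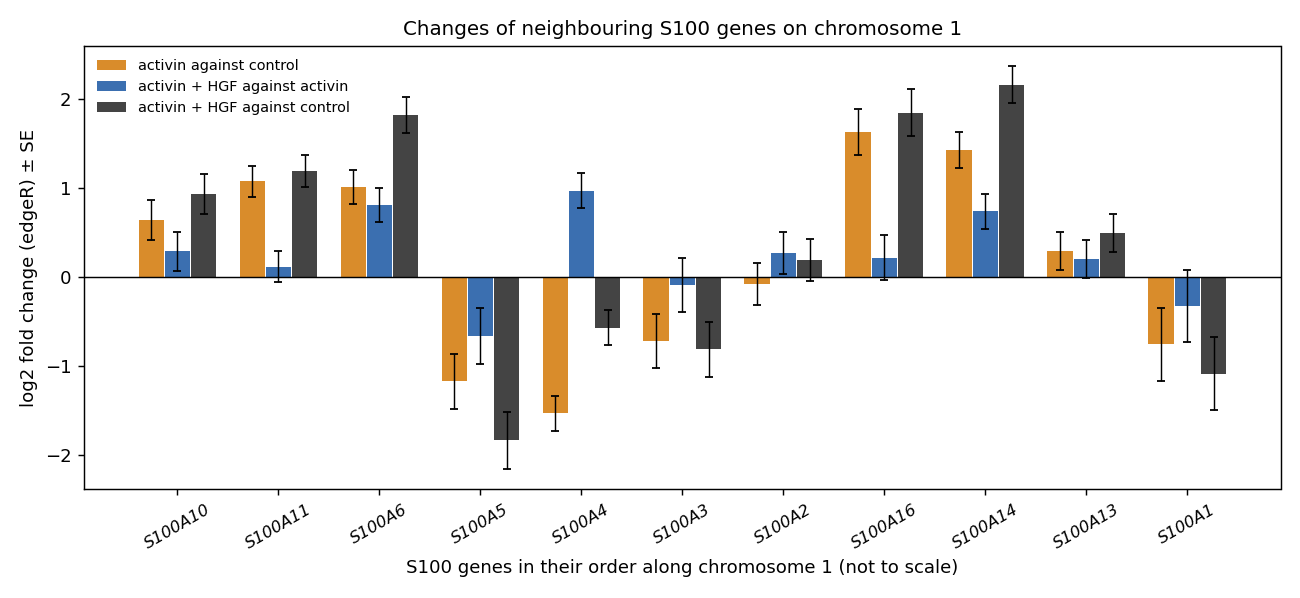
Log2 fold change (edgeR) ± SE of 11 S100 genes in their order along chromosome 1, with bars for activin against control, activin + HGF against activin and activin + HGF against control, each from 3 libraries per group. S100A6, S100A16 and S100A14 point up in all comparisons on this scale (the HGF step of S100A16 turns to -0.09 on FPKM), S100A5 points down, and S100A4 points down with activin (-1.53) and up in the HGF step (0.97). S100A9 and S100A7, with very low counts, are left out.

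The other S100 genes and the fused-type genes, which join S100 domains to long repeats, made a list of 18, of which 11 were matched and 7 tested. With activin, 1 rose and 1 fell (edgeR, call rule as above), while 6.78% of all tested genes were called higher and 4.62% lower. The median log2 fold change of the 7 was 0.29. TCHH, the fused-type gene trichohyalin of the hair follicle, had 0.408, 0.119 and 0.634 CPM in control, 1.98, 2.72 and 1.84 CPM in activin and 1.89, 1.80 and 2.46 CPM in activin + HGF libraries. It rose with activin by 2.48 ± 0.530 (log2, SE, edgeR adjusted p = 0.00966) and was as far from control with both factors (2.40 ± 0.529, edgeR adjusted p = 0.00692), at levels below 1 FPKM.

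S100A5, a little-expressed member between S100A6 and S100A4, had 4.17, 5.40 and 4.78 CPM in control, 1.98, 2.90 and 1.48 CPM in activin and 1.18, 1.40 and 1.43 CPM in activin + HGF libraries. The groups did not overlap. It fell with activin by 1.18 on the log2 scale (SE 0.313, edgeR adjusted p = 0.0267) and stood further below control with both factors, at -1.84 ± 0.320 (edgeR adjusted p = 0.00205). The activin call was lost without any 1 of control replicates 1, 2 and 3 and activin replicates 1 and 3, with adjusted p (edgeR) of 0.0668 to 0.111, and with no filter on low counts (0.0527).

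S100A10 (p11), the partner of annexin A2, had 121, 139 and 130 CPM in control, 158, 281 and 168 CPM in activin and 281, 223 and 237 CPM in activin + HGF libraries. Both treated groups lay above control. Its log2 fold change was 0.64 ± 0.224 with activin (edgeR adjusted p = 0.0745) and 0.93 ± 0.225 with both factors (edgeR adjusted p = 0.0110), under the fold required for a call. S100A1, a member best known from heart muscle, was low at 2.63, 2.47 and 2.61 CPM in control and 1.32, 0.916 and 1.39 CPM with both factors (log2 fold change -1.09 ± 0.409, edgeR adjusted p = 0.0664). S100A13, which is known for the export of FGF1, gave 0.49 ± 0.214 in the same comparison (edgeR adjusted p = 0.107). S100A1 and S100A13 lie on opposite strands and share 235 exon bases, and how strand was treated in the counting is not given in the sources used here, so their counts cannot be told apart with certainty. For activin + HGF against control 1 of the 7 rose (TCHH) and 1 fell (S100A5), against 11.3% and 10.2% of all tested genes, and the median was -0.01. In the HGF step 0 of the 7 were called by edgeR, 0 had an unadjusted p under 0.05, DESeq2 called 0 and the median was -0.09.

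Receptors and binding partners of S100 proteins made a list of 25 genes, of which 23 were matched and tested. With activin 1 rose and 2 fell, with activin + HGF against activin 1 rose and 1 fell, and with activin + HGF against control 2 rose and 3 fell (edgeR, call rule as above). The medians were -0.24, -0.22 and 0.02. Over all tested genes the shares called were 6.78% higher and 4.62% lower, 3.87% higher and 4.21% lower, and 11.3% higher and 10.2% lower, so the counts of the list were near the background and nothing is read from them.

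Among the receptors, BSG (basigin), a receptor of S100A9, had 417, 391 and 457 CPM in control, 551, 762 and 519 CPM in activin and 1134, 1179 and 857 CPM in activin + HGF libraries. It rose with both factors against control (log2 fold change 1.33, edgeR adjusted p = 0.000844), while S100A9 itself was not detectable. AGER, which encodes RAGE, the receptor of S100P among others, stood at 3.92 to 5.71 CPM in control, 4.02 to 7.41 CPM in activin and 4.57 to 5.47 CPM in activin + HGF libraries. The groups overlapped and AGER was called in no comparison.

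TRPV6, an epithelial calcium channel that S100A10 and annexin A2 bring to the cell surface, had 1.11, 1.87 and 1.23 CPM in control, 11.8, 13.3 and 10.4 CPM in activin and 6.76, 5.71 and 5.55 CPM in activin + HGF libraries. The groups did not overlap, and activin was the highest. TRPV6 rose with activin by 3.07 ± 0.275 (log2, SE, edgeR adjusted p = 0.000106) and with both factors by 2.09 (edgeR adjusted p = 0.000371). Its FPKM stayed below 1 in every library, and on log2(FPKM + 1) the change was 0.81 with activin and 0.31 with both factors.

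Among the cytoplasmic partners, CACYBP, the calcyclin-binding protein, was lower in the activin libraries, where its ligand S100A6 was higher. It had 122, 144 and 106 CPM in control, 46.6, 48.6 and 45.0 CPM in activin and 76.7, 58.5 and 63.9 CPM in activin + HGF libraries. It fell with activin (log2 fold change -1.41, SE 0.175, edgeR adjusted p = 0.000574). PLA2G4A, the cytosolic phospholipase A2 and a partner of S100A10, had 17.5, 13.4 and 16.8 CPM in control, 8.06, 5.15 and 9.93 CPM in activin and 19.2, 16.1 and 15.3 CPM in activin + HGF libraries. It fell with activin (-1.04, edgeR adjusted p = 0.0183) and rose in the HGF step (1.13, edgeR adjusted p = 0.0202). Its activin call was lost without control replicate 1 or 3 or activin replicate 1 or 2, with estimates of -0.82 to -1.03, and with upper-quartile scaling (-0.99) or on FPKM. Its call in the HGF step was lost without control replicate 1, activin replicate 1 or 2 or activin + HGF replicate 1, with estimates of 0.91 to 1.08, with only the 2 groups compared (1.09), and on FPKM (0.77 on log2(FPKM + 0.1)).

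PPFIBP1 (liprin beta 1), a partner of S100A4, had 75.7, 59.7 and 64.7 CPM in control, 56.7, 37.5 and 43.4 CPM in activin and 28.0, 22.2 and 19.8 CPM in activin + HGF libraries. It fell by 1.51 on the log2 scale with both factors against control (edgeR adjusted p = 0.000653). S100PBP, named for its binding of S100P, had 24.3, 26.1 and 23.2 CPM in control, 6.84, 11.4 and 24.5 CPM in activin and 2.74, 12.2 and 6.81 CPM in activin + HGF libraries. It fell by 1.75 against control (edgeR adjusted p = 0.0301), a call lost without any 1 of control replicates 1, 2 and 3 and activin + HGF replicates 1 and 3, with adjusted p (edgeR) of 0.0620 to 0.0795.

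EZR (ezrin), the membrane-to-actin linker that S100P binds, had 1425, 1538 and 1487 CPM in control and 1360, 1961 and 1291 CPM in activin libraries. It had 2463, 2439 and 2408 CPM in activin + HGF libraries. Activin + HGF against control differed by 0.72 on the log2 scale (edgeR adjusted p = 0.0109), under the fold required for a call. The estimate was 0.05 for activin against control and 0.66 for the HGF step (edgeR adjusted p = 0.881 and 0.0336). On FPKM the activin (388 to 509) and activin + HGF (489 to 577) libraries overlapped. MYH9, the myosin target of S100A4, had 514, 561 and 523 CPM in control, 592, 804 and 495 CPM in activin and 499, 575 and 545 CPM in activin + HGF libraries. In CPM the groups overlapped, and edgeR called MYH9 in no comparison. On FPKM the activin + HGF libraries (36.7 to 50.3) lay below those of control (52.65 to 55.3) and activin (55.1 to 77.2).

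**Figure D4:**
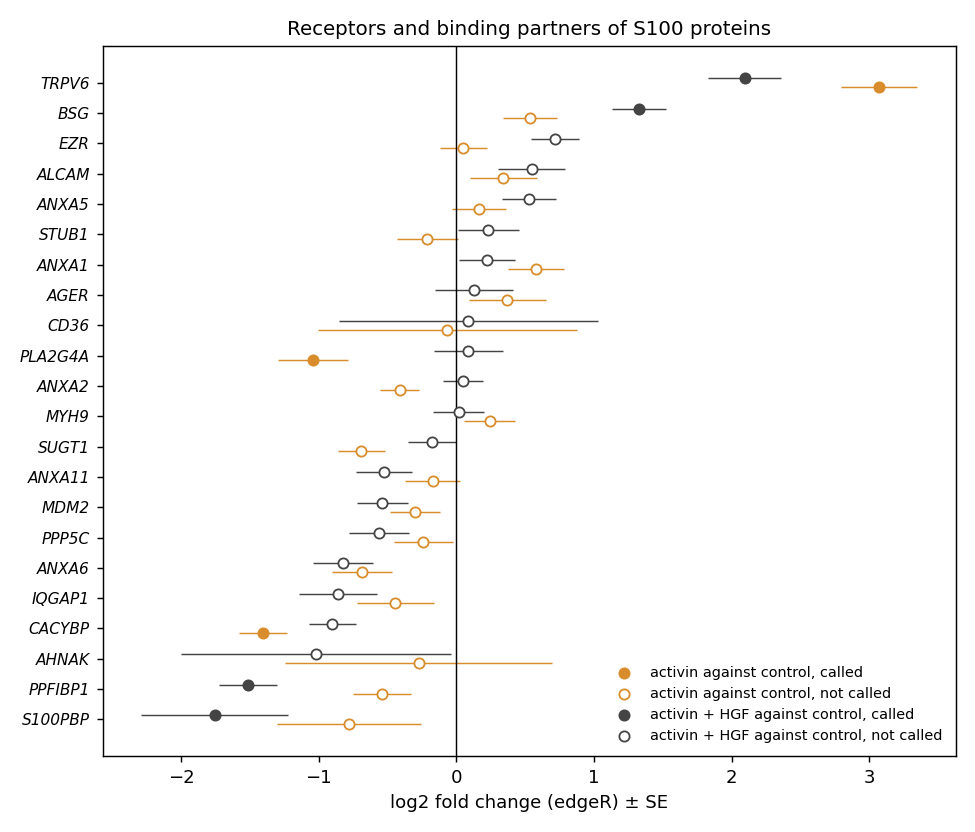
Log2 fold change (edgeR) ± SE of receptor and partner genes against control, with activin and with activin + HGF, from 3 libraries per group. Filled points met the call rule. TRPV6 stands highest in both comparisons (3.07 and 2.09), and of the genes drawn S100PBP stands lowest with activin + HGF (-1.75).

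The genes whose profile over the 9 libraries was most like that of S100P, by Pearson's r of log2(CPM + 0.1), included KLF2 (r = 0.996), PPP1R14C (r = 0.994), MIDN (r = 0.994) and LAMB3 (r = 0.993). They were among the top 5 of tested genes with a symbol and a mean of at least 1 CPM in their highest group. LAMB3 encodes a chain of a laminin of the epithelial basement membrane, and KLF2 encodes a Krueppel-like transcription factor. KLF2 had 8.25, 9.90 and 9.84 CPM in control, 81.3, 134 and 77.9 CPM in activin and 232, 204 and 202 CPM in activin + HGF libraries. As with S100P, the groups did not overlap and activin + HGF was the highest. The 9 points fall into 3 treatment groups, so r mainly states that the groups stand in the same order.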

How the data were processed

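For each gene and each of the 9 libraries the authors deposited a count, without normalization, and an FPKM value, which they had scaled to library size and gene length. The submitters' processing notes name cutadapt 1.9, HISAT2 2.0.4 and StringTie 1.3.4d, and the build and strand setting are not given in the sources used here. The members and lists were chosen with earlier results of these data known. Groups follow the titles and treatment labels. Nothing says that replicates came from separate cultures, so p-values measure the spread between libraries, which may be technical. Replicates of a group differed beyond sampling noise (chi-square divided by its degrees of freedom, 60.6 to 276).

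Deposited counts were tested with edgeR 4.0.16 in R 4.3.3 (filterByExpr, TMM scaling, glmQLFit and glmQLFTest, all 9 libraries, a mean per group), with Benjamini-Hochberg adjustment over 20988 genes. The SE of a log2 fold change was taken from its F statistic and is approximate. Levels and plots were made with pandas 2.3.3, matplotlib 3.10.9 and numpy 2.4.6 in Python 3.11.15. The scripts were tested on simulated data. All members are named, as are called genes of the lists, some other tested genes of the lists and genes among the 5 most like S100P. Some genes that meet this rule count in the totals and are not reported here. Alternatives were DESeq2 size factors, upper-quartile scaling, no filter, a replicate block, only the 2 groups compared, DESeq2 1.42.0, limma 3.58.1 on log2(FPKM + 0.1) or log2(FPKM + 1), no fold threshold, each library left out, and counts divided by 4, which was chosen after seeing the data. An exact two-sided permutation test of 3 libraries against 3 cannot go below 0.1. GENCODE exon bases were removed from the printed S100A16 and S100A14 windows, and the S100P and S100A4 windows were printed only as 30 bases.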

Additional observations from a re-analysis of the deposited data

How the results depend on the processing

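Precision is limited by the 3 libraries of each group. No alternative turned the direction of a called gene named here. For activin against control, genes called went from 2394 to 1199 with limma on log2(FPKM + 1) and 3776 with no fold threshold. The other S100 genes called went from 2 to 1 with no filter, 1 with limma on log2(FPKM + 0.1) and 0 with log2(FPKM + 1), where TRPV6 was no longer called either and partners went from 3 to 1. For activin + HGF against activin, genes called went from 1697 to 677 with only the 2 groups, 699 with limma on log2(FPKM + 1) and 2698 with no fold threshold. S100 members called there went from 1 to 0 with upper-quartile scaling, no filter, only the 2 groups, or limma at either pseudocount, and to 4 with no fold threshold. Partners went from 2 to 4 with upper-quartile scaling, 0 with only the 2 groups, 1 with limma on log2(FPKM + 1) and 6 with no fold threshold. With activin + HGF against control, genes called went from 4519 to 2238 and other S100 genes from 2 to 1 with limma on log2(FPKM + 1), and partners went from 5 to 8 with limma on log2(FPKM + 0.1) and 10 with no fold threshold. On log2(FPKM + 1) the calls over all genes split into 212 higher and 487 lower for activin + HGF against activin and 822 higher and 1416 lower for activin + HGF against control. The pseudocount shrinks the change of low genes by construction, and the other causes were not tested.

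With each library left out in turn, genes called ranged from 1688 to 2651, 606 to 2418 and 3537 to 4699 in the 3 comparisons. S100 members called ranged from 4 to 6, 0 to 2 and 5 to 6, other S100 genes from 1 to 2, 0 to 0 and 2 to 3, and partners from 2 to 3, 0 to 4 and 4 to 5.

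Libraries with the same replicate number did not deviate together (correlation of deviations -0.06 to 0.09 over 9 pairs), so the number is not taken as a pairing. With the replicate block, genes called were 2218, 1366 and 4222, and members called were 0 in the comparison of activin + HGF against activin. Counts divided by 4 gave 2491, 1851 and 4477 genes.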

Other observations

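AHNAK, a very large scaffold protein that binds S100A10 with annexin A2, was the partner with the widest spread between replicates. It had 533, 485 and 520 CPM in control, 37.5, 448 and 788 CPM in activin and 420, 316 and 21.1 CPM in activin + HGF libraries. One activin library and 1 activin + HGF library thus stood far below the others of their group, and it was called in no comparison. ANXA1, the partner of S100A11, had 429, 350 and 405 CPM in control, 605, 428 and 740 CPM in activin and 461, 421 and 503 CPM in activin + HGF libraries, so activin replicate 2, the highest activin library for S100A11, was the lowest one for ANXA1. ANXA2, the partner of S100A10, had 1049, 1094 and 1054 CPM in control and 722, 869 and 815 CPM in activin libraries. It had 1208, 1076 and 1022 CPM in activin + HGF libraries, so in CPM activin lay below both other groups. Neither step passed the test (edgeR adjusted p = 0.0728 for activin against control and 0.0594 for activin + HGF against activin). On FPKM the activin (82.4 to 91.6) and activin + HGF (88.05 to 95.2) libraries overlapped, and both lay below control (107 to 109).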
